A study of Mus musculus with 12 samples.

Results

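The transcriptome of muscle stem cells (MuSCs) was compared between cells cultured for 2 days without compression (2d-U) and freshly isolated cells (F). The comparison used 3 libraries of each, 6 of the 12 libraries of the series, and every gene of the deposited count table. It addresses how MuSCs change over their first 2 days in culture. Both groups came from hindlimb muscle of Pax7-ZsGreen transgenic mice aged 3 to 6 months, in which a green fluorescent protein is driven by Pax7 regulatory sequence, and ZsGreen+ cells were collected by FACS. F cells were sorted straight into TRIzol. 2d-U cells were plated on plastic coated with Matrigel and fibronectin, in DMEM with fetal bovine serum, horse serum, chicken embryo extract and FGF, and were lysed on the plate without a second sort. The 2 groups therefore differ in time, medium, substrate and the moment of lysis at once, and these cannot be told apart. Each F and 2d-U library held 20329459 to 45003574 reads assigned to genes. Nothing in the labels says that the libraries of a group came from separate mice or cultures, so p-values measure only the spread between these libraries, which may be technical. The other 6 libraries were 5-day cultures without (5d-U) or with (2+3d-C) compression.

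MuSCs lie between the myofiber and its basement membrane, where they stay out of the cell cycle. When a muscle is injured or the cells are isolated, they leave quiescence: growth and metabolism rise first, then the cells replicate their DNA, divide as myoblasts and finally differentiate or return to quiescence. Pax7 marks the stem cell, Myod1 the committed or activated myoblast, and Myog the differentiating cell. Isolation itself takes hours of dissociation, during which cells switch on fast-reacting genes such as Fos.

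Of 22635 genes tested, 2395 were higher and 7527 were lower in 2d-U than in F at an adjusted p under 0.05, by edgeR's quasi-likelihood test. These are 10.6% and 33.3% of the genes, and the median log2 fold change over all tested genes was -1.63, or -1.57 with genes of at most 3 reads in every library of a group set at the limit that 3 reads allow. Levels are given as CPM, read counts scaled to the size of the library after TMM, and for each gene the values are listed in the order F 1, F 4, F 5 and then 2d-U 1, 2 and 3. Log2 fold changes are 2d-U minus F, with standard errors (SE). The counts depended on single libraries: 1552 were higher and 4031 lower without F 4, 1276 and 3784 without F 5, 2426 and 14107 without F 1, and 1544 to 1577 and 3584 to 3753 without any one 2d-U library. The excess of lower genes lay at low levels: of the 11869 genes that averaged below 5 CPM over all 12 libraries, 54 were higher and 4907 lower, and 4557 of those lower had at most 3 reads in every 2d-U library. Of the 10766 that averaged 5 CPM or more, 2341 (21.7%) were higher and 2620 (24.3%) were lower, with a median log2 fold change of 0.09. In that set the higher genes had a median exon length of 3229 bases, the lower genes 5619.5 and the uncalled genes 4789. Counts of list members below are read against the shares of all genes. For lists whose members mostly averaged 5 CPM or more, the 21.7% and 24.3% also apply.

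**Figure D1:**
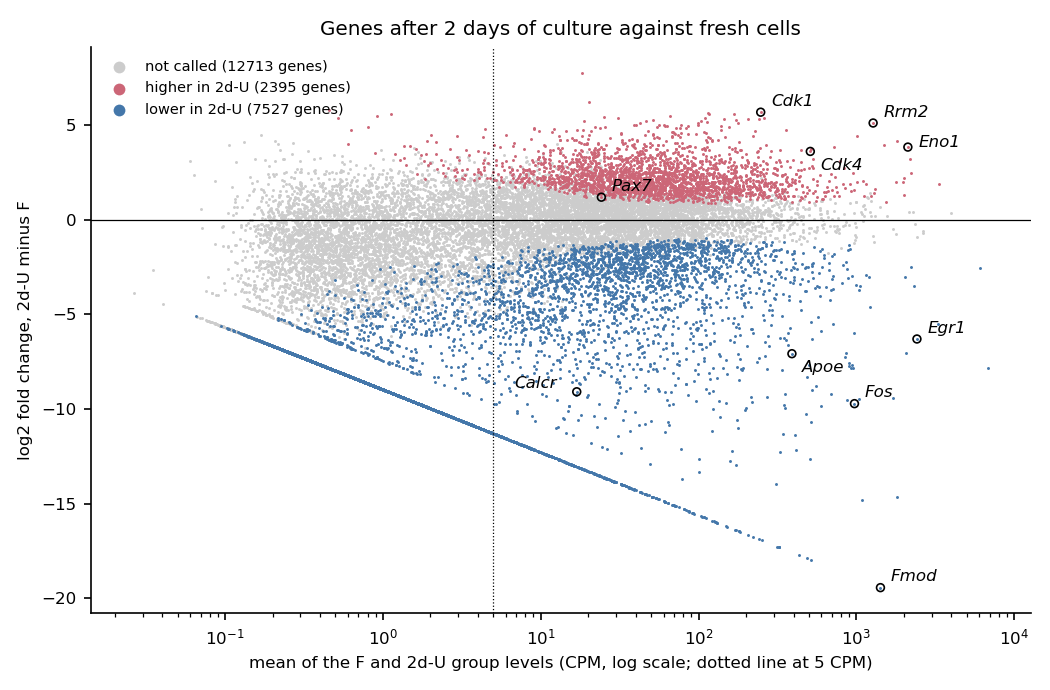
Log2 fold change of each of the 22635 tested genes, 2d-U minus F (vertical axis), against the mean of the 2 group levels in CPM (horizontal axis, log scale). Red points are higher and blue points lower in 2d-U at an adjusted p under 0.05, and grey points are not called. The higher genes lie mostly to the right of the dotted line at 5 CPM, while the diagonal lower edge is formed by genes with no read in 2d-U.

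The F libraries differed from one another and held RNA of other cell types. On olfactory receptors and other families that these cells do not express, F 4 and F 5 held 5.08 and 7.25 reads for each kb of exon. F 1 held 0.24 and 2d-U at most 0.0262. Of 477 such genes tested, 247 were called lower. The number was 848 of 865 tested without F 1. It was 7 to 11 of 478 to 865 tested without F 4, F 5 or any one 2d-U library. Across the 10766 genes of at least 5 CPM, in counts of the same pipeline and unequal depth, the log2 CPM values of F 4 and F 5 correlated at 0.95 (Pearson), those of F 1 with either at 0.815 and 0.835, those of 2d-U with each other at 0.931 to 0.947, and those of F with 2d-U at 0.195 to 0.341. The 15 tested immune markers summed to 2941, 991 and 872 CPM in F and to 4.05 to 6.90 CPM in 2d-U, and all 15 were lower in 2d-U, against 33.3% of all genes. The 12 endothelial markers summed to 1904, 3097 and 3229 CPM in F against 27.8 to 34.7 CPM, and again all 12 were lower. The largest sums were those of the 12 markers of fibroadipogenic cells, the connective tissue progenitors of muscle, at 5284, 34529 and 28602 CPM in F against 134 to 240.3 CPM, all 12 lower. The 10 smooth muscle and pericyte markers (1033, 845 and 1149 against 67.2 to 89.9 CPM, 9 lower), the 8 glial markers (456, 786 and 661 against 3.13 to 4.32 CPM, 8 lower) and the 6 erythroid genes (684, 161 and 249 against 0.118 to 0.199 CPM, 6 lower) followed the same order in every library. Several defining markers had no read in any 2d-U library: Flt1 of endothelium, Pdgfra, Lum, Dpt and Pi16 of fibroadipogenic cells, Pdgfrb, Rgs5 and Myh11 of mural cells, Sox10 of glia, and Lyz2 and Tyrobp of myeloid cells. Mature myofiber genes were different. They summed to 51.0 CPM in F 1, below or near the 58.8 to 96.4 CPM of 2d-U, but to 3106 and 2099.9 CPM in F 4 and F 5, so that the 12 of 12 called lower fell to 3 with F 1 as the only fresh library. How much of the fresh-cell signal of any gene came from these cells was not tested, and in bulk RNA fewer cells of a type and less RNA per cell cannot be told apart.

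**Figure D2:**
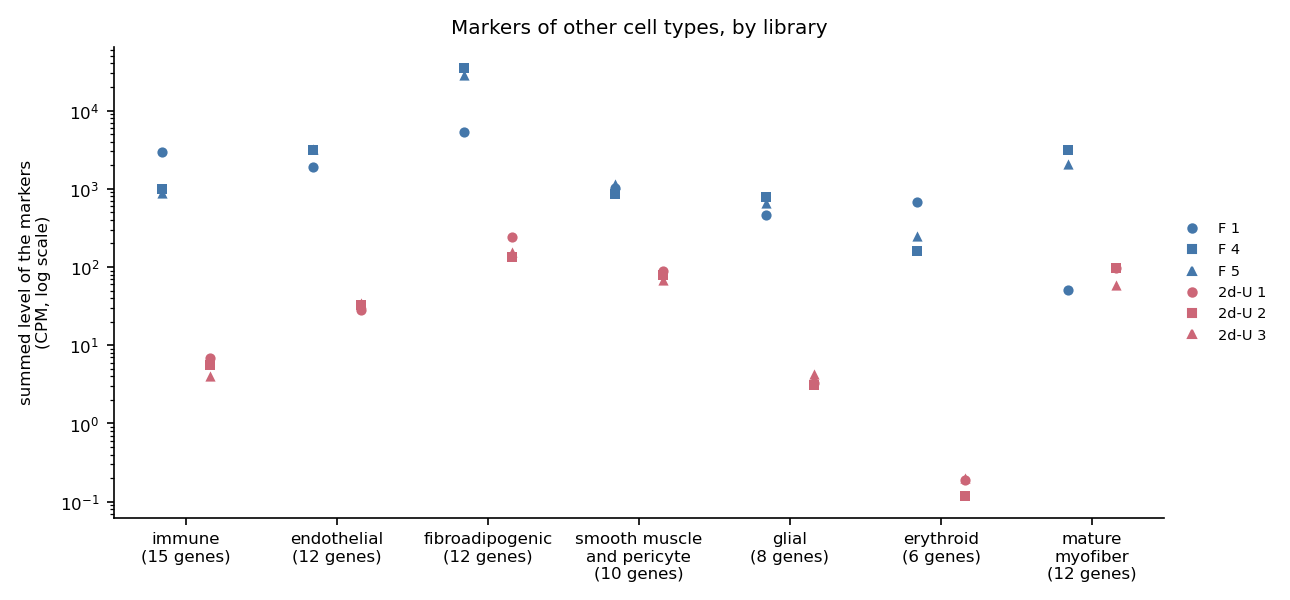
Summed CPM of the markers of 7 other cell types (log scale) in each F library (blue) and each 2d-U library (red). F libraries lie above the 2d-U libraries for every list except mature myofiber, where F 1 is at 51.0 CPM.

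Because of these differences, every count was also taken with F 1 as the only fresh library. It is then assumed to vary like the other groups, and 613 of 23894 genes (2.57%) were higher and 2362 (9.89%) lower, and counts of list members against F 1 alone are read against these shares. Taking DESeq2's scaling moved the median of all genes to -1.84, and leaving out TMM moved it to -1.54. Neither turned the sign of the median of any list described here.

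The stem cell label was checked with 9 MuSC markers, Pax7, Myf5, Itga7, Vcam1, Cdh15, Cd34, Sdc4, Calcr and Chrdl2. All 9 were detected in every F library, and 7 of them in every 2d-U library. Pax7 (mm10 chromosome 4, 139737062 to 139833528), the transcription factor that defines the lineage, was measured at 21.6, 8.93 and 13.6 CPM in F and 37.9, 29.9 and 33.3 CPM in 2d-U. The groups did not overlap, and the rise only just passed the threshold (log2 fold change 1.20, SE 0.47, adjusted p = 0.0498 by edgeR's quasi-likelihood test). It did not pass without F 4, F 5 or any one 2d-U library (adjusted p up to 0.165), nor against F 1 alone (log2 fold change 0.67, adjusted p = 0.615). It also missed the threshold with DESeq2 (adjusted p = 0.0513), with scaling without mitochondrial genes (0.0502), without a filter on low counts (0.0814) and among genes of 5 CPM or more (0.117). The laminin receptor subunit Itga7 (214, 154 and 204 CPM in F, 479, 372 and 437 CPM in 2d-U) and M-cadherin, Cdh15 (59.1, 51.6 and 47.6 and 105, 59.9 and 78.8 CPM), also lay higher in every 2d-U library, without passing (adjusted p = 0.0926 and 0.347). Cd34 (345, 481 and 419 and 211, 201 and 231 CPM, adjusted p = 0.424) was lower in every 2d-U library, also without passing.

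Most genes tied to quiescence were lower. Of 30 tested genes of MuSC identity and quiescence, 19 fell, 1 (Pax7) rose and 10 did not pass, beside 33.3% lower and 10.6% higher over all genes. The median log2 fold change was -3.31 beside -1.63 over all genes. With F 1 as the only fresh library 17 were called lower. The calcitonin receptor Calcr (mm10 chromosome 6, 3685680 to 3764714), which helps to keep MuSCs in quiescence, stood at 83.1, 3.47 and 14.8 CPM in F and 0.151, 0 and 0 CPM in 2d-U. The F libraries spread widely around a level that was almost gone after 2 days (log2 fold change -9.09, SE 1.76, adjusted p = 0.00189). Heyl, a Notch effector, went from 225, 115 and 212 to 2.40, 0.705 and 1.4 CPM, 121-fold lower (adjusted p = 6.9e-05). Chodl, a membrane lectin, and Chrdl2, a secreted BMP antagonist, went from 1161, 189 and 232 to 4.10, 3.06 and 3.74 CPM and from 593, 155 and 251 to 3.59, 0 and 7.67 CPM. Each was highest in F 1 and each F library lay above each 2d-U library (adjusted p = 0.000422 and 0.00251).

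The cyclin-dependent kinase inhibitor Cdkn1c (p57), a brake on the cell cycle, was even across the fresh libraries at 68.9, 62.8 and 47.2 CPM and nearly absent after culture at 0.416, 0 and 0 CPM (log2 fold change -8.57, SE 1.37, adjusted p = 0.000568). The receptor tyrosine kinase Tek (131, 86.5 and 124 to 1.30, 0 and 0.931 CPM) and the adhesion protein Tenm4 (23.8, 12.3 and 22.7 to 0.681, 0 and 0.0665 CPM) fell in the same manner (adjusted p = 0.000782 and 0.00119). Tek is also an endothelial gene, and the endothelial markers fell with it. Abundant fresh-cell transcripts fell as well: the secreted glutathione peroxidase Gpx3 from 11297, 3519.7 and 4615 to 143, 152 and 130.3 CPM, 45.7-fold lower, and the lipid carrier Apoe from 1258, 555 and 513 to 6.52, 6.07 and 4.67 CPM, 135-fold lower (adjusted p = 0.00034 and 7.79e-05). Vcam1, a surface protein which is used to sort MuSCs, went from 1417, 831 and 825 to 199, 147 and 204 CPM, 5.59-fold lower, and the proteoglycan Sdc4 from 2763, 858 and 1864 to 173, 165 and 173 CPM, 10.7-fold lower (adjusted p = 0.00107 and 0.000213). Spry1, an inhibitor of FGF signaling, was 4.68-fold lower (337, 167 and 206 to 55.4, 51.7 and 44.8 CPM, adjusted p = 0.00122). Cd82, Megf10, Hes1, Cdkn1b, Foxo3, Angpt1 and Sdc3 did not pass the test, with log2 fold changes from -3.48 to 1.42.

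**Figure D3:**
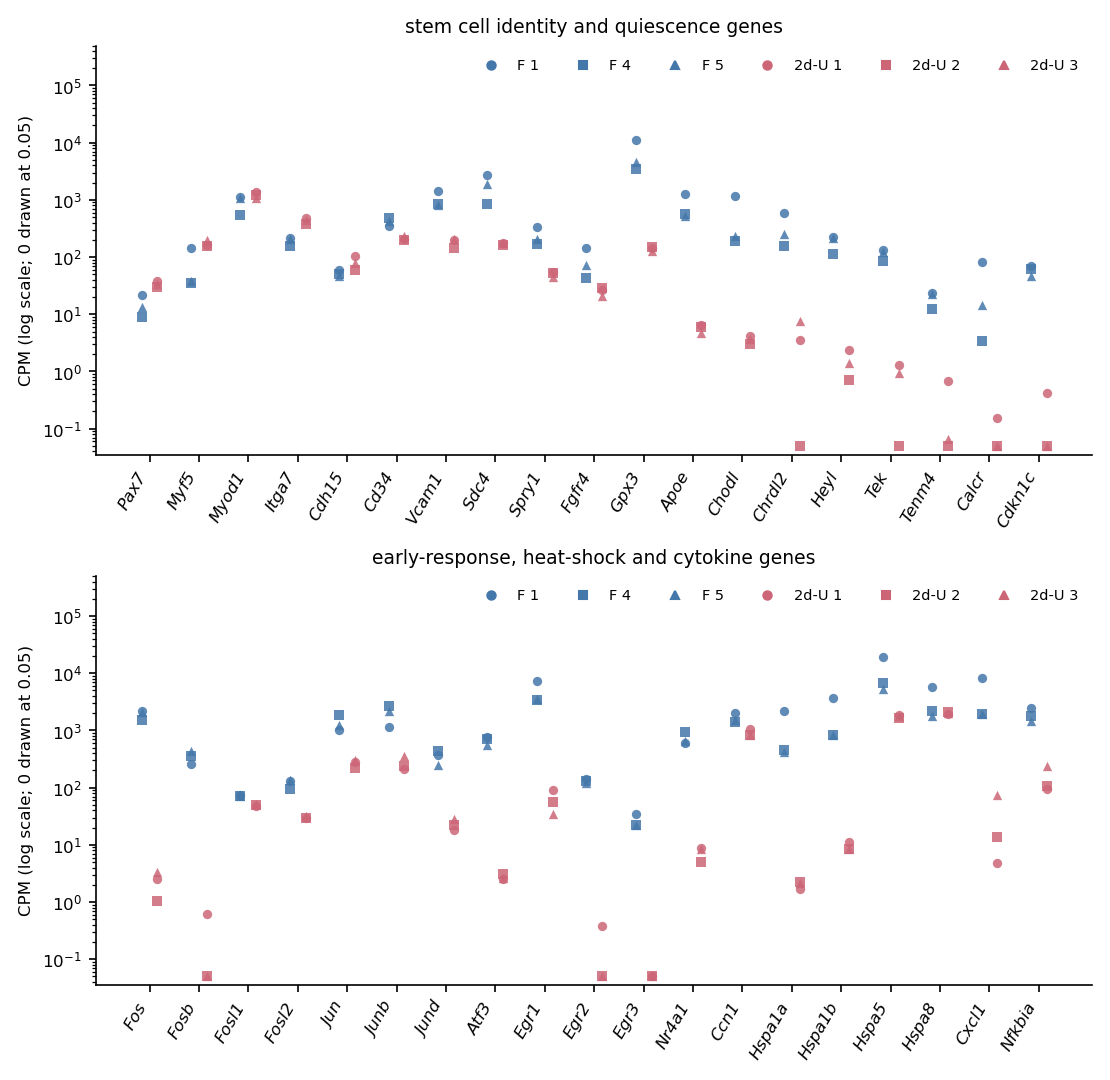
CPM (log scale) of stem cell and quiescence genes (top) and of early-response, heat-shock and cytokine genes (bottom) in each F library (blue) and each 2d-U library (red), with circles, squares and triangles for the libraries of a group and values of 0 drawn at 0.05. Pax7, Myf5 and Myod1 lie near or above their F values in 2d-U, whereas Calcr, Cdkn1c, Fos and Egr3 drop to a few CPM or to 0.

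Myod1 was abundant in the fresh cells already. It read 1111, 553 and 1067 CPM in F and 1379, 1198 and 1078 CPM in 2d-U, and the groups overlapped (log2 fold change 0.42, SE 0.42, adjusted p = 0.429). Scaled to exon length (RPKM), it stood at 489 ± 167 RPKM (SD, n = 3) in F, where Pax7 stood at 2.51 ± 1.09 RPKM. Myf5 (147, 34.9 and 38.8 CPM in F, 161, 158 and 200.1 CPM in 2d-U) was higher than each F library in each 2d-U library without passing (adjusted p = 0.0612), and F 1 lay close to the cultured cells. The inhibitors Id1, Id2 and Id3 did not pass, while Id4 fell from 42.7, 19.3 and 16.9 to 0.851, 0.588 and 1.55 CPM (adjusted p = 0.000555). Mef2c, a partner of the myogenic factors that is also expressed in other mesodermal cells, went from 88.6, 57.4 and 56.0 CPM to 0 in all 3 2d-U libraries, at least 839-fold lower (adjusted p = 0.000192), and Mef2a was 8.58-fold lower (adjusted p = 0.000399).

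The differentiation genes depended on the F library. Myog read 1.33, 345 and 5.01 CPM in F and 3.25, 0.705 and 2.66 CPM in 2d-U, so that only F 4 stood out. Its call as lower (log2 fold change -5.72, SE 2.01, adjusted p = 0.0362) was lost without F 4 (log2 fold change -0.52, adjusted p = 0.796) and without any one 2d-U library (adjusted p up to 0.0758). The fusion factor Mymk (0.666, 48.8 and 2.38 CPM in F) and the embryonic myosin Myh3 (0.0416, 39.8 and 2.51 CPM in F) were also mainly in F 4, where Hes6, a promoter of myogenic differentiation, read 252 CPM beside 6.20 and 4.55 CPM in F 1 and F 5. Without F 4, Hes6 was higher in 2d-U (394, 479 and 354 CPM, log2 fold change 6.26, adjusted p = 0.00131), and with it the difference did not pass (adjusted p = 0.137). Cardiac troponin T, Tnnt2, a gene of early myotubes, read 0.25, 44.9 and 3.26 CPM in F and 81.0, 79.5 and 72.9 CPM in 2d-U (adjusted p = 0.135, and 0.00852 without F 4). Altogether 14 of 29 myogenic genes were called lower, against 33.3% of all genes. The number lower was 7 without F 4, 8 without 2d-U 2, 7 without 2d-U 3 and 4 with F 1 as the only fresh library.

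Early-response genes, which cells switch on within minutes of a stimulus, were lower almost as a whole. Of 34 such genes 31 were lower and none higher, beside 33.3% and 10.6% of all genes. Their median log2 fold change was -3.88, and -3.87 with F 1 as the only fresh library. Fos (mm10 chromosome 12, 85473890 to 85477273), a subunit of the AP-1 transcription factor, read 2216, 1551 and 2063 CPM in F and 2.51, 1.06 and 3.32 CPM in 2d-U. The fresh libraries were close together and all 3 cultures held a few CPM, an 839-fold difference (log2 fold change -9.71, SE 0.74, adjusted p = 6.62e-06). Fosb went from 255, 359 and 437 to 0.624, 0 and 0 CPM, and Egr3 from 34.4, 22.0 and 22.3 CPM to 0 in all 3 2d-U libraries, at least 327-fold lower. Egr1, a zinc finger factor, kept more of its level (7282, 3475 and 3579 to 90.5, 57.3 and 34.6 CPM, adjusted p = 7.24e-05). The AP-1 family was unequal. Junb (1134, 2722 and 2199 to 208, 241 and 361 CPM) and Jun (1018, 1869 and 1261 to 284, 219.5 and 299 CPM) were 7.47-fold and 5.17-fold lower (adjusted p = 0.000862 and 0.000543), Fosl2 was 3.98-fold lower (adjusted p = 0.00494), and Fosl1 did not pass at 73.8, 72.9 and 72.0 CPM in F and 48.2, 49.3 and 52.6 CPM in 2d-U (adjusted p = 0.373). The stress factor Atf3 (761, 698 and 561 to 2.53, 3.06 and 2.61 CPM) and the nuclear receptor Nr4a1 (597, 954 and 644 to 8.92, 5.01 and 8.40 CPM) both fell (adjusted p = 7.18e-06 and 9.06e-06). Ccn1 (2004, 1406 and 1546 and 1078, 825 and 821 CPM, adjusted p = 0.181) and the GTPase gene Rhob were the other 2 that did not pass.

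Single heat-shock and chaperonin genes moved in opposite directions. Among 36 genes of the chaperonin and heat-shock list 10 were higher and 12 lower (median -0.55), against 10.6% and 33.3% of all genes. Among the 35 that averaged 5 CPM or more, 10 were higher and 11 lower, against 21.7% and 24.3% of genes at that level. The inducible Hsp70 genes Hspa1a (2229, 460.2 and 427 to 1.66, 2.27 and 2.19 CPM) and Hspa1b (3675, 840.2 and 824 to 11.1, 8.50 and 8.55 CPM) were 508-fold and 189-fold lower (adjusted p = 0.000243 and 0.000124). The 2 genes are near-identical copies, so the reads between them may be misassigned. The chaperone of the endoplasmic reticulum, Hspa5, was 5.90-fold lower (18941, 6646 and 5411 to 1846, 1635 and 1772 CPM, adjusted p = 0.00175), while the constitutive Hspa8 (5743, 2170.1 and 1812 and 1979, 2062 and 2043 CPM) overlapped and did not pass. Each of the 8 subunits of the chaperonin ring that folds actin and tubulin rose, from a log2 fold change of 1.25 for Cct3 to 1.99 for Cct7, which read 523, 348 and 352 CPM in F and 1631, 1647 and 1577 CPM in 2d-U. The mitochondrial chaperonin Hspd1 rose too (557, 255 and 228 to 1283, 1011 and 1155 CPM, adjusted p = 0.00498). F 1 lay above F 4 and F 5 for each of the 8, and 4 of the 8 calls did not hold throughout. Cct3 was lost without F 4, F 5 or any one 2d-U library (adjusted p up to 0.0981), Cct4 without F 4, F 5 or any one 2d-U library (adjusted p up to 0.0839), Cct8 without F 4, F 5 or 2d-U 1 (adjusted p up to 0.0576) and Cct6a without F 5 (adjusted p up to 0.0507). The number higher was 6 without F 4, 5 without F 5, 6 without 2d-U 1 and 0 with F 1 as the only fresh library, where 12 were lower.

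Most cytokine genes were lower in culture. Of 25 cytokines, chemokines and receptors 22 were lower and none higher, beside 33.3% and 10.6% of all genes. Their median log2 fold change was -5.12, and -4.77 with F 1 as the only fresh library. The neutrophil chemokine Cxcl1 read 8400.4, 1906 and 1954 CPM in F and 4.74, 13.6 and 74.6 CPM in 2d-U. The 2d-U libraries differed among themselves, with 2d-U 3 the highest, but all lay far below F (log2 fold change -7.04, SE 1.47, adjusted p = 0.003). Il6, a cytokine made by stressed muscle cells and by leukocytes, went from 1363, 828 and 837 to 0, 0 and 0.443 CPM, and the NF-kB inhibitor and target Nfkbia from 2489, 1792 and 1481 to 96.2, 109 and 240.2 CPM (adjusted p = 0.000102 and 0.00123). The eosinophil chemokine Ccl11, at 246, 454 and 398 CPM in F, had no read in 2d-U and was at least 4559-fold lower. Csf1, the growth factor of macrophages, was the exception at 219.7, 1099 and 656 CPM in F and 1644, 1403 and 2305 CPM in 2d-U. Every 2d-U library lay above every F library, without passing (adjusted p = 0.0566). It did pass without F 4 (adjusted p = 0.0365) and against F 1 alone (log2 fold change 3.04, adjusted p = 0.0331). The immune markers fell from 2941, 991 and 872 CPM to at most 6.90 CPM over the same libraries, and their part in the cytokine genes was not tested.

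Genes that drive or restrain the G1 phase were more often higher than lower. Of 25 G1 cyclins, kinases and inhibitors 11 were higher and 4 lower, beside 10.6% and 33.3% of all genes. Among the 23 that averaged 5 CPM or more 11 were higher and 4 lower, beside 21.7% and 24.3% of genes at that level. The list's median was 1.72, and 2.10 with F 1 as the only fresh library. Cdk4, the kinase that D cyclins activate, read 61.6, 99.6 and 70.0 CPM in F and 944, 951 and 938 CPM in 2d-U. The cultures agreed within a few CPM and were 12.3-fold higher (log2 fold change 3.62, SE 0.41, adjusted p = 5.78e-05). The D cyclins parted: Ccnd1 rose from 9.40, 26.6 and 32.7 to 283, 334 and 294 CPM, Ccnd2 fell from 96.3, 164 and 119 to 23.3, 27.6 and 29.8 CPM, and Ccnd3 (58.5, 155 and 71.2 and 272, 227 and 243 CPM) missed the threshold (adjusted p = 0.00312, 0.001 and 0.0511). Both E cyclins, which start replication with Cdk2, rose: Ccne1 by a log2 fold change of 4.49 (3.99, 11.7 and 3.11 to 152, 141 and 131 CPM) and Ccne2 by 3.91 (18.1, 9.09 and 6.02 to 163, 140.5 and 195 CPM). In the E2F family, E2f1, E2f2 and E2f3, which activate replication genes, were higher, as were E2f4 and E2f8, which act mainly as repressors, while E2f5 and E2f7 were not called. The call of E2f2 was lost without F 4 or F 5 (adjusted p up to 0.0813). The 4 lower genes were Ccnd2, the inhibitors Cdkn1a and Cdkn1c, and Rbl2, a pocket protein that represses E2F targets, and 2 of them remained without F 4, F 5 or any one 2d-U library. Cdkn1a (p21), induced by p53 and on cell cycle exit, was 2.91-fold lower (447, 606 and 441 to 164, 176 and 173 CPM, adjusted p = 0.0457), a call lost without F 4, F 5 or any one 2d-U library (adjusted p up to 0.111). Myc, which is also an early-response gene, was lower at 1970.0, 984 and 1028 CPM in F and 463, 417 and 434 CPM in 2d-U (adjusted p = 0.0247), a call lost without any one 2d-U library (adjusted p up to 0.0767).

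Replication genes rose nearly as a whole. Of 53 genes 48 were higher and none lower, against 10.6% of all genes. Among the 51 that averaged 5 CPM or more 47 were higher, against 21.7% of genes at that level. The number higher was 36 to 46 with any one library left out, lowest without F 5. Their median log2 fold change was 3.28, and 3.23 with F 1 as the only fresh library. Mcm5 (mm10 chromosome 8, 75109569 to 75128439), a subunit of the replicative helicase, read 18.2, 24.6 and 15.9 CPM in F and 493, 392 and 394 CPM in 2d-U. The groups were far apart and each was tight (log2 fold change 4.45, SE 0.45, adjusted p = 2.76e-05). The other 5 subunits, Mcm2, Mcm3, Mcm4, Mcm6 and Mcm7, rose by log2 fold changes of 4.70, 3.56, 1.90, 3.11 and 3.50. Mcm4 had the smallest change of the 6: F 1 held 108 CPM beside 43.3 and 44.1 CPM in F 4 and F 5, and the call was lost without F 4, F 5, 2d-U 1 or 2d-U 3 (adjusted p up to 0.0963). Rrm2, the S-phase subunit of the enzyme that makes deoxynucleotides, went from 61.5, 143 and 10.2 to 2436, 2382 and 2629 CPM, 34.7-fold higher (adjusted p = 0.000911), and its partner Rrm1, which is present through the cycle, from 107, 77.4 and 74.6 to 457, 402 and 453 CPM, 5.06-fold higher. Pcna, Pola1, Pole, Ticrr and Timeless did not pass.

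Mitotic genes rose furthest. Of 61 genes of mitosis, spindle and kinetochore 57 were higher and none lower. All 61 averaged 5 CPM or more, where 21.7% of genes were higher and 24.3% lower. The number higher was 39 to 54 with any one library left out, lowest without F 5. Their median was 3.90, and 4.48 with F 1 as the only fresh library. Cdk1 (mm10 chromosome 10, 69335146 to 69352938), the kinase that drives entry into mitosis, read 7.57, 16.6 and 4.12 CPM in F and 479, 497 and 482 CPM in 2d-U. F 4 was the highest of the fresh libraries, and the cultures were 51.5-fold higher (log2 fold change 5.69, SE 0.91, adjusted p = 0.000555). Plk1 (1.54, 11.2 and 1.39 to 256, 201 and 224 CPM) and Aurka (2.25, 16.5 and 2.00 to 292, 348 and 349 CPM), kinases of the mitotic spindle, and Cdc20 (6.82, 22.4 and 5.95 to 468, 497 and 440.4 CPM), an activator of the ubiquitin ligase that ends mitosis, showed the same order of the fresh libraries. Cdca8 and Aurkb of the chromosomal passenger complex rose by log2 fold changes of 5.31 and 5.02 (adjusted p = 5.08e-05 and 7.24e-05). The 4 that did not pass were Cdc25c, Knl1, Aspm and Pttg1. For comparison, Cdk1 stood at 756 CPM in 5d-U and 1.19 CPM in 2+3d-C, each a mean of 3 libraries.

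**Figure D4:**
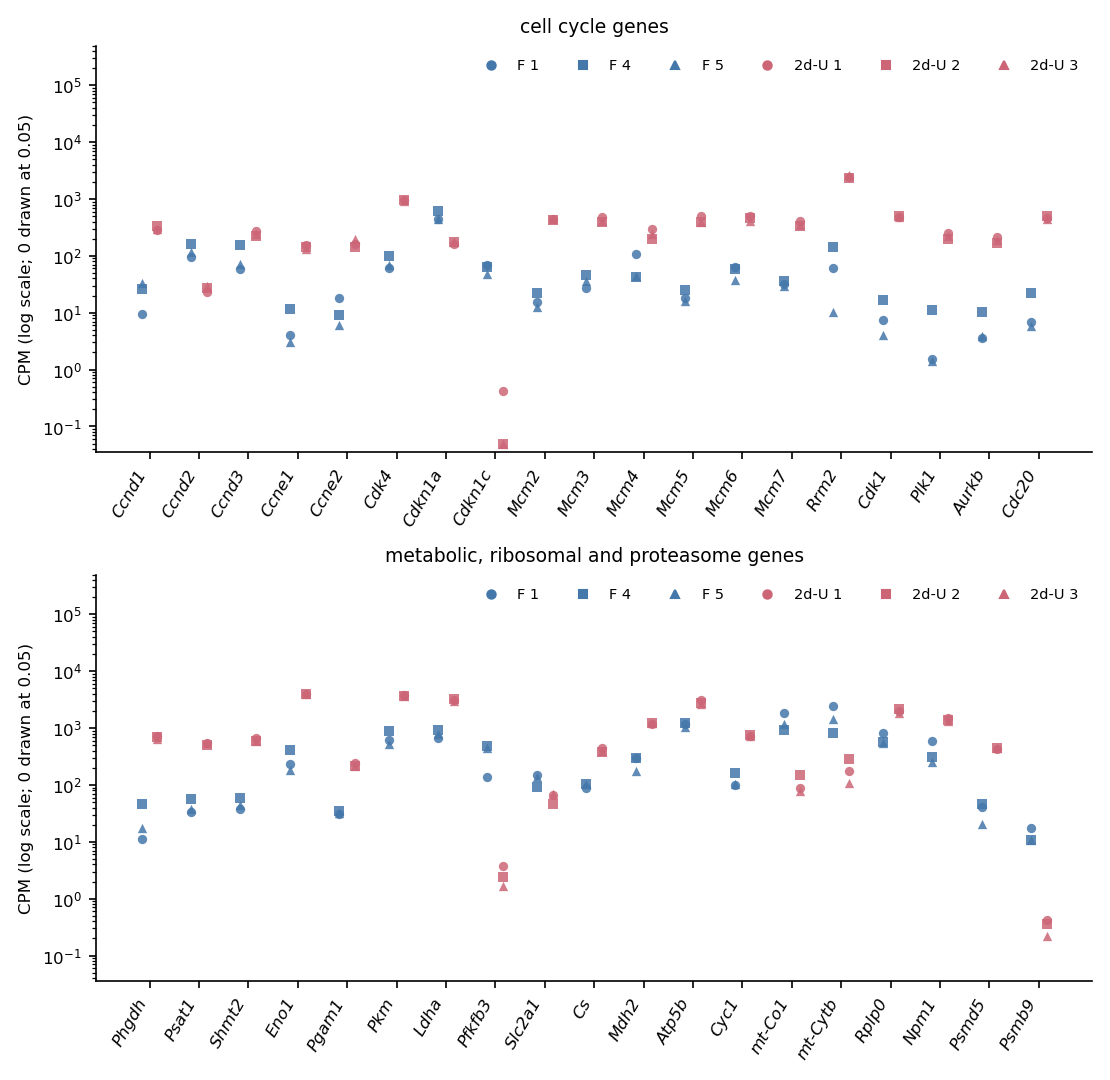
CPM (log scale) of cell cycle genes (top) and of metabolic, ribosomal and proteasome genes (bottom) in each F library (blue) and each 2d-U library (red), with circles, squares and triangles for the libraries of a group and values of 0 drawn at 0.05. Replication and mitotic genes and Eno1 rise with no overlap, Ccnd2, Cdkn1c, Pfkfb3, mt-Co1 and Psmb9 fall, and for most genes the 2d-U libraries lie closer together than the F libraries.

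The promoters of these 2 lists were searched for motifs because the lists rose together. Promoters were RefSeq windows of 300 bases on GRCm38.p6, from 250 bases before to 50 after a start site, searched on both strands. E2F letters were searched as TTCCCGC (a form common to many such sites), as TTGGCGC, as TTCGCGC and as TTGCCGC. They were in 30 of the 51 promoters matched to replication genes (58.8%), in 26.8% of the 56 of mitotic genes and in 9.57% of all 32851 promoters. The CHR letters TTTGAA, an element of late cell cycle genes, were in 37 (66.1%) of the mitotic, 15.7% of the replication and 17.9% of all promoters. CCAAT, more frequent in both lists than among all promoters, was in 75%, 54.9% and 37.4% of them. For ribosome biogenesis genes the shares were 18.6% for E2F letters, 9.3% for CHR and 18.6% for the E-box CACGTG, which was in 7.15% of all promoters. 43 of 53 replication, 52 of 61 mitotic and 35 of 40 ribosome biogenesis genes had an entry. Fewer than 80% of the early-response genes had one, so no share is given for them. Letters of TTGGCGC and of CCAAT can overlap, and a match is a description and not a bound site.

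Shown are 2 helicase promoters with E2F letters in capitals, Mcm5 (chr8:75109259-75109558, plus strand) with 3 matches and Mcm6 (chr1:128359656-128359955, minus strand) with 5, and 2 mitotic promoters with TTTGAA and CCAAT in capitals (on either strand), Cdk1 (chr10:69352863-69353162, minus strand) with 2 and 3 matches (and 2 E2F matches, left in lower case) and Aurka (chr2:172370521-172370820, minus strand) with 1 and 2. Each is read 5′ to 3′ along its gene.
Mcm5: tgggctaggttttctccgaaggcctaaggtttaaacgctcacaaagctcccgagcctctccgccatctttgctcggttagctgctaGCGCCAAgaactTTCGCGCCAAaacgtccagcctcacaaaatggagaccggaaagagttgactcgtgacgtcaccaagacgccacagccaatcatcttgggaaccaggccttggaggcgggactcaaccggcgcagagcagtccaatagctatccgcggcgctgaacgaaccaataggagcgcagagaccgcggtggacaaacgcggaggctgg
Mcm6: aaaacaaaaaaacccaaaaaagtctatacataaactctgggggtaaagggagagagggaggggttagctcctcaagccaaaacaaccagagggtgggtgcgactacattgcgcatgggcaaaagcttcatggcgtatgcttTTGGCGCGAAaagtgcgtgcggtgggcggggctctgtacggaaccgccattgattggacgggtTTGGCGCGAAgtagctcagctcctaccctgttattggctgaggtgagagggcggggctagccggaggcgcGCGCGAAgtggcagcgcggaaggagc
Cdk1: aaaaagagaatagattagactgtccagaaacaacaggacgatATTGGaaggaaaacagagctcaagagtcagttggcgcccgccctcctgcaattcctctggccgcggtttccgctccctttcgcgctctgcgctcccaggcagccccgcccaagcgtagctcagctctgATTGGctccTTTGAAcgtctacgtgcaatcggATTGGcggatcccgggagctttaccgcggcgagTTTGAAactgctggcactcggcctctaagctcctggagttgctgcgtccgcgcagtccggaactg
Aurka: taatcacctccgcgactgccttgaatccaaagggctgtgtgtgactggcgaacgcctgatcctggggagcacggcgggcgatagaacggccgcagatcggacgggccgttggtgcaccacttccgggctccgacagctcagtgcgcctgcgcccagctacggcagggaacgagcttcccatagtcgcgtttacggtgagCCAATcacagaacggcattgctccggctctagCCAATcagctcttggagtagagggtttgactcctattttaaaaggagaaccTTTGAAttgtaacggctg

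Genes that make nucleotide precursors rose beside those of replication. Of 25 genes of nucleotide and one-carbon synthesis 19 were higher and none lower, beside 10.6% and 33.3% of all genes. Among the 24 that averaged 5 CPM or more 19 were higher, beside 21.7% of genes at that level. The list's median was 2.46, and 2.95 with F 1 as the only fresh library. Phgdh, the first enzyme of serine synthesis, read 11.1, 46.7 and 17.7 CPM in F and 716, 693 and 651 CPM in 2d-U, 27.3-fold higher (log2 fold change 4.77, SE 0.58, adjusted p = 8.12e-05). The next step, Psat1 (33.7, 55.6 and 37.5 to 556, 511 and 536 CPM), and mitochondrial serine hydroxymethyltransferase, Shmt2 (37.2, 59.1 and 44.6 to 657, 592 and 589 CPM), rose 12.6-fold and 13.0-fold (adjusted p = 0.000142 and 3.77e-05). The purine enzyme Adsl was tight in both groups at 42.8, 44.7 and 44.1 and 318, 349.9 and 310.1 CPM (adjusted p = 8.9e-05). Pfas, Impdh1, Adss, Prps1, Ctps and Aldh1l2 did not pass.

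Of 23 glycolytic genes 10 were higher and 8 lower, beside 10.6% and 33.3% of all genes. Their median log2 fold change was -0.23, but 0.98 over the 21 that averaged 5 CPM or more. Among those 21 genes, 10 were higher and 6 lower, beside 21.7% and 24.3% of genes at that level. Higher were enzymes of the pathway from glucose 6-phosphate to lactate, namely Gpi1, Pfkl, Tpi1, Gapdh, Pgk1, Pgam1, Eno1, Eno3, Pkm and Ldha. Eno1, enolase, read 236, 409.9 and 182 CPM in F and 4049, 3945 and 3897 CPM in 2d-U, 14.4-fold higher (log2 fold change 3.84, SE 0.49, adjusted p = 0.000121), and Pkm and Ldha were 5.57-fold and 3.96-fold higher (adjusted p = 0.000523 and 0.00174). Lower were the glucose transporters Slc2a1, Slc2a3 and Slc2a4, the lactate exporter Slc16a3, hexokinase 2, Aldoc, Pfkp and the regulator Pfkfb3. Pfkfb3, which makes the activator of phosphofructokinase, read 138, 477 and 452 CPM in F and 3.76, 2.39 and 1.66 CPM in 2d-U, 136-fold lower (log2 fold change -7.09, SE 0.72, adjusted p = 2.73e-05). Hk2 went from 65.1, 59.8 and 137 to 3.88, 3.17 and 14.1 CPM (adjusted p = 0.00331). Against F 1 alone 8 were higher and 4 lower. The weakest calls were those of Pfkl, lost without any one library (adjusted p up to 0.107), Gapdh, lost without F 4, F 5 or any one 2d-U library (adjusted p up to 0.103), Eno3, lost without F 5 (adjusted p up to 0.0756), Slc2a1, lost without F 5 or any one 2d-U library (adjusted p up to 0.142), and Aldoc, lost without F 4, F 5 or any one 2d-U library (adjusted p up to 0.14).

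Transcripts of the respiratory chain parted by genome. Of 78 nuclear genes of oxidative phosphorylation 50 were higher and none lower (median 1.62). All 78 averaged 5 CPM or more, where 21.7% of genes were higher and 24.3% lower. By contrast, of 12 tested transcripts of the mitochondrial genome 9 were lower and none higher (median -3.49), beside 33.3% and 10.6% of all genes. The 12 and the 9 include the ribosomal RNAs mt-Rnr1 and mt-Rnr2, which are not transcripts of the respiratory chain. Cyc1, cytochrome c1 of complex III, read 98.3, 159 and 105 CPM in F and 724, 754 and 737 CPM in 2d-U, and mt-Cytb, cytochrome b of the same complex, 2489.5, 808 and 1465 and 173, 287 and 109 CPM. The first was 6.10-fold higher and the second 8.38-fold lower (adjusted p = 0.00378 and 0.00774). Atp5b of the ATP synthase rose from 1173, 1221 and 1036 to 3122, 2728 and 2661 CPM (adjusted p = 0.0141), and mt-Co1 of complex IV fell from 1850.2, 926 and 1176 to 88.2, 148 and 77.2 CPM (adjusted p = 0.00221). The transcripts mt-Atp6, mt-Co2 and mt-Co3 had under 3 CPM in every library; reads on sequences with near-identical nuclear copies can be lost in counting. The nuclear rises depended on the libraries used, the call of Atp5b being lost without F 5 or any one 2d-U library (adjusted p up to 0.066): 26 were called without F 4, 9 without F 5, 29, 22 and 31 without 2d-U 1, 2 and 3, and 1 with F 1 as the only fresh library. Of the 9 mitochondrial falls, that of mt-Nd1 was lost without F 1, F 5 or any one 2d-U library (adjusted p up to 0.138) and against F 1 alone (adjusted p = 0.0594), and the other 8 passed there too. In the citric acid cycle and fatty acid oxidation 10 of 29 were higher and none lower, beside 10.6% and 33.3% of all genes. Among the 28 that averaged 5 CPM or more 10 were higher, beside 21.7% of genes at that level. The list's median was 0.66, and 0.45 with F 1 as the only fresh library. The higher genes included citrate synthase, Cs (89.6, 103 and 105 to 441, 379 and 396 CPM), and Mdh2 (296, 298 and 174 to 1179.8, 1234 and 1238 CPM), with adjusted p = 0.00142 and 0.0064. Of 29 genes of sterol and fatty acid synthesis none was higher and 2 were lower, beside 10.6% and 33.3% of all genes. The 2 were Scd1 (log2 fold change -3.49) and Hmgcs1 (-1.33), the latter call lost without any one library (adjusted p up to 0.119). The number lower was 6 with DESeq2 and 6 of 28 among genes of 5 CPM or more, and with both groups fitted alone 3 were higher and 8 lower. The list's median of -0.06 turned to 0.03 when the density of reads on silent families was subtracted.

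Ribosomal protein genes rose by less than cell cycle genes. Of 89 cytosolic ribosomal protein genes 56 were higher and 2 lower (median 1.48), the 2 being the tissue-restricted paralogs Rpl3l and Rpl39l. Over all genes 10.6% were higher and 33.3% lower, and 21.7% and 24.3% at 5 CPM or more. Rplp0, of the ribosomal stalk, read 834, 577 and 540.2 CPM in F and 1974, 2138 and 1857 CPM in 2d-U (log2 fold change 1.61, SE 0.44, adjusted p = 0.013), with F 1 between F 4 and F 5 and the cultures. Rpl4 was also highest in F 1 among the fresh libraries, at 1207, 418 and 527 and 1937, 1939 and 1773 CPM (adjusted p = 0.0262). The call of Rplp0 was lost without F 5 (adjusted p up to 0.051), that of Rpl4 without F 4, F 5 or any one 2d-U library (adjusted p up to 0.0913) and that of Rpl39l without F 4, F 5 or any one 2d-U library (adjusted p up to 0.0983). Their call count was 23 without F 4, 23 without F 5, 32, 26 and 28 without 2d-U 1, 2 and 3, and 0 with F 1 as the only fresh library, and many of these genes have pseudogene copies that share reads. Of 40 ribosome biogenesis genes 21 were higher and 1 (Nop58) lower (median 0.98). Pa2g4, a growth-linked nucleolar protein (82.4, 85.6 and 117 to 619, 759 and 603 CPM), and Wdr12 of the large-subunit pathway (49.3, 39.1 and 37.2 to 209.7, 239 and 229.6 CPM) rose 6.96-fold and 5.40-fold (adjusted p = 0.00125 and 0.000289). Of 46 translation factors 23 were higher and 1 (Eif1) lower (median 1.19), with Eef1g 6.15-fold higher (98.7, 75.8 and 90.2 to 547, 575 and 506 CPM, adjusted p = 0.00024) and Eef1a1 overlapping between the groups (adjusted p = 0.7). The higher calls were 11 to 21 and 12 to 26 in these 2 lists with any one library left out, the lowest without 2d-U 1 and without F 4 or F 5, and 5 and 3 with F 1 as the only fresh library. The call of Nop58 was lost without F 5 or any one 2d-U library (adjusted p up to 0.101) and Eif1 without F 1, F 4 or any one 2d-U library (adjusted p up to 0.11).

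Proteasome genes mostly rose, while the immunoproteasome subunits Psmb8 and Psmb9 fell. Of 41 subunit genes 28 were higher and 2 lower (median 1.62). All 41 averaged 5 CPM or more, where 21.7% of genes were higher and 24.3% lower. Psmd5, an assembly factor of the regulatory cap (40.7, 45.7 and 20.1 to 423, 438 and 454 CPM), was 12.3-fold higher (log2 fold change 3.62, SE 0.44, adjusted p = 7.93e-05), and the standard catalytic subunits Psmb5, Psmb6 and Psmb7 rose by log2 fold changes of 2.91, 1.99 and 1.80. The 2 lower genes were catalytic subunits of the immunoproteasome, which interferon induces: Psmb8 (47.1, 65.1 and 44.4 to 2.31, 1.45 and 1.62 CPM) and Psmb9 (17.5, 10.9 and 10.9 to 0.416, 0.353 and 0.222 CPM), with adjusted p = 0.00137 and 0.000971. The third, Psmb10, did not pass (21.0, 29.0 and 25.6 and 37.4, 44.6 and 31.9 CPM, adjusted p = 0.318). The number higher was 15 without F 4, 13 without F 5, 18 and 18 without 2d-U 1 and 2, and 3 with F 1 as the only fresh library, while the 2 lower calls stayed. The call of Psmb6 was lost without F 4, F 5 or 2d-U 2 (adjusted p up to 0.0788) and Psmb7 without F 4 or F 5 (adjusted p up to 0.0663). Psmb8 and Psmb9 fell in the same libraries as the immune markers described above, and the part of immune cells in this was not tested.

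Matrix genes fell, in libraries whose fibroadipogenic markers fell from 5284, 34529 and 28602 CPM to at most 240.3 CPM. Of 44 collagen genes 33 were lower and none higher, beside 33.3% and 10.6% of all genes. The median log2 fold change was -8.41, or -5.68 with 21 genes at their limit of 3 reads per library. With F 1 as the only fresh library the median was -4.72. Col1a1 and Col1a2, of the fibrillar collagen of connective tissue, read 125, 2016 and 2013 and 196, 2151 and 3327 CPM in F and 1.4, 5.52 and 0.244 and 13.5, 7.25 and 4.19 CPM in 2d-U. F 1 held far less of both than F 4 and F 5. Col3a1 kept 151, 68.3 and 81.0 CPM in 2d-U (283, 1237 and 2327 CPM in F, adjusted p = 0.00397), and was no longer called against F 1 alone (log2 fold change -1.48, adjusted p = 0.271). The collagen V genes Col5a1 and Col5a3, which the authors tie to MuSC quiescence, fell as well. Col5a1 went from 64.9, 89.7 and 204 to 15.1, 5.80 and 17.8 CPM and Col5a3 from 40.7, 95.0 and 232 to 1.51, 2.55 and 0 CPM (adjusted p = 0.00207 and 0.0023). The call of Col5a1 was lost against F 1 alone. Both were lowest in F 1 and highest in F 5 among the fresh libraries, as Col1a2 was. Which cells they came from was not tested. Against F 1 alone 18 collagen genes were lower.

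Of 42 laminins and integrins 32 were lower and 1, the laminin chain Lamb3, was higher, beside 33.3% and 10.6% of all genes. The median of the 42 was -6.07, or -4.99 with 18 genes at their limit. The list's median was -4.325 with F 1 as the only fresh library. The call of Lamb3 was lost without any one F library, 2d-U 1 or 2d-U 2 (adjusted p up to 0.106). Lama2, a chain of the laminin around myofibers, went from 65.7, 40.4 and 111 to 7.58, 2.59 and 2.97 CPM and its receptor subunit Itga6 from 125, 114 and 166 to 1.68, 1.57 and 4.92 CPM (adjusted p = 0.00146 and 0.000531). The common beta subunit Itgb1 (980.2, 923 and 980.4 and 714, 507 and 535 CPM) was lower in every 2d-U library, without passing (adjusted p = 0.23). Among 52 matrix proteases and inhibitors 35 were lower and 1, Adamts14, was higher, beside the same shares of all genes. The median of the 52 was -6.10, or -4.01 with 17 genes at their limit. For this list the median shrank to -1.82 with F 1 as the only fresh library. Adamts1, which cleaves proteoglycans, fell from 1046, 1713 and 2309 to 10.1, 8.50 and 14.4 CPM (log2 fold change -7.26, SE 0.77, adjusted p = 3.71e-05), and Timp3, an inhibitor bound to the matrix, from 436, 1104 and 948 to 0, 0 and 0.51 CPM (adjusted p = 8.22e-05). The lysosomal protease Ctsl overlapped between the groups. Against F 1 alone 19 laminin and integrin and 18 protease genes were lower. How much of these falls came from other cell types was not tested.

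The Notch pathway, which holds MuSCs in quiescence, was lower at the level of receptors and targets. Of 30 genes 19 were lower and none higher, beside 33.3% and 10.6% of all genes. The median of the list was -3.47, or -2.96 with 4 genes at their limit. All 4 receptors were called lower: Notch1 from 27.7, 37.6 and 116 to 6.82, 1.41 and 0 CPM, Notch2 from 16.8, 15.5 and 68.5 to 1.00, 0.94 and 4.79 CPM, Notch3 from 53.9, 23.0 and 62.7 to 1.66, 4.43 and 4.17 CPM and Notch4 from 13.1, 14.6 and 16.9 to 0.473, 1.45 and 0 CPM. F 5 was the highest fresh library for each. The call of Notch1 was lost without F 5 or 2d-U 2 (adjusted p up to 0.0751), Notch2 without F 5 (adjusted p up to 0.0546) and Notch4 without F 4, F 5, 2d-U 1 or 2d-U 3 (adjusted p up to 0.101). With F 1 as the only fresh library Notch3 alone of them passed (log2 fold change -3.96, adjusted p = 0.0197). The ligand Jag1 fell from 77.8, 55.5 and 92.9 to 3.80, 2.31 and 3.15 CPM and Dll4, the ligand of endothelium, from 29.5, 61.2 and 84.7 CPM to 0 in all 3 2d-U libraries, at least 729-fold lower (adjusted p = 0.000785 and 0.00036), whereas Dll1 overlapped (26.3, 45.6 and 62.4 and 33.8, 28.0 and 28.8 CPM). Among targets Hey1 fell from 80.5, 44.4 and 40.8 to 3.10, 3.76 and 2.59 CPM (adjusted p = 0.000848) beside Heyl above, and Hes1 missed the threshold (90.2, 59.6 and 70.1 and 28.3, 29.4 and 25.0 CPM, adjusted p = 0.0519). The gene Nrarp had no read in 2d-U and shares 79.4% of its exon bases with another gene, so its reads are uncertain. The transcription factor Rbpj and the secretase subunit Ncstn did not pass. The number lower was 11 without F 5, 12 and 11 without 2d-U 2 and 3, and 7 with F 1 as the only fresh library. Notch4 and Dll4 are also genes of endothelium and Notch3 of mural cells, whose markers fell in the same libraries. How much of the fall of any receptor, ligand or target here came from other cell types was not tested.

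Growth factor genes mostly fell. Of 27 receptors and ligands 19 were lower and 2, Pdgfa and Met, were higher, beside 33.3% and 10.6% of all genes. Their median log2 fold change was -3.64, and -3.52 with F 1 as the only fresh library. Met, the receptor through which HGF activates MuSCs, read 72.3, 23.6 and 58.6 CPM in F and 184, 102 and 135 CPM in 2d-U, but the call (log2 fold change 1.45, SE 0.56, adjusted p = 0.0486) was lost without F 4, F 5 or any one 2d-U library (adjusted p up to 0.151). Pdgfa, a ligand for fibroblastic cells, rose from 28.1, 74.5 and 51.0 to 285, 284 and 314 CPM (log2 fold change 2.52, SE 0.48, adjusted p = 0.00164). The FGF receptor Fgfr1 fell from 566, 392 and 679 to 132, 105 and 116 CPM and Fgfr4 from 145, 42.8 and 72.5 to 27.0, 28.9 and 21.2 CPM (adjusted p = 0.00726 and 0.0325), the call of Fgfr4 being lost without F 1, F 5 or any one 2d-U library (adjusted p up to 0.0952). Hbegf, an EGF-like ligand, fell from 239, 423 and 332 to 52.2, 33.4 and 62.3 CPM (adjusted p = 0.000617). The receptors Pdgfra, Pdgfrb and Kdr, at 0 or nearly 0 in 2d-U, are also markers of fibroadipogenic, mural and endothelial cells.

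Of 39 genes of the actin cytoskeleton and YAP targets 6 were higher and 10 lower (median -0.30), beside 10.6% and 33.3% of all genes. Among the 37 that averaged 5 CPM or more, 6 were higher and 9 lower, beside 21.7% and 24.3% of genes at that level. Ankrd1, a muscle ankyrin repeat protein and YAP target, rose from 193, 63.8 and 15.8 to 1983, 1877 and 1941 CPM (log2 fold change 4.41, SE 0.81, adjusted p = 0.00139). Profilin, Pfn1, which feeds actin polymerization, rose 9.26-fold from 386, 601 and 293 to 3644, 4134 and 4065 CPM (adjusted p = 0.00307), and the crosslinker Actn1 9.87-fold (adjusted p = 0.000289). Actb read 3340.4, 2417 and 3728 CPM in F and 1644, 1712 and 1794 CPM in 2d-U and did not pass (adjusted p = 0.154). The YAP partner Wwtr1 (TAZ) fell from 535, 314 and 465 to 109, 66.0 and 89.7 CPM (adjusted p = 0.00125), as did Yap1 and Tead1 by log2 fold changes of -1.90 and -1.60, with the call of Yap1 lost without 2d-U 2 (adjusted p up to 0.0515) and that of Tead1 without F 5 or any one 2d-U library (adjusted p up to 0.0881). Of the YAP targets Ccn2 was lower and Ccn1, Axl and Amotl2 did not pass. The number lower was 6, 4 and 6 without 2d-U 1, 2 and 3 and 4 against F 1 alone, where 3 were higher.

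Of 31 genes of the FoxO pathway and the lysosome 15 were lower and none higher, beside 33.3% and 10.6% of all genes (9 lower against F 1 alone). The median of -1.76 lay near the -1.63 of all genes but below that of genes of like level. Of the 30 that averaged 5 CPM or more 15 were lower, with a median of -1.75. Over all genes at that level 24.3% were lower, with a median of 0.09. Foxo1, a factor of quiescence and catabolism, went from 137, 122 and 115 to 14.4, 5.21 and 9.37 CPM, 12.9-fold lower (log2 fold change -3.69, SE 0.45, adjusted p = 8.86e-05), while Foxo3 did not pass. The autophagy receptor Sqstm1 (5454, 2237 and 3237 to 478, 401 and 463 CPM) and the lysosomal membrane protein Lamp2 (1337, 541 and 518 to 87.9, 59.0 and 85.9 CPM) were highest in F 1 and low in all cultures (adjusted p = 0.000251 and 0.000243). Clock genes fell too, 14 of 17 with none higher, beside the same shares of all genes. Their median was -3.21, and -2.51 with F 1 as the only fresh library. Rora, an activator of the loop, went from 207, 76.6 and 70.6 to 2.21, 4.27 and 5.52 CPM and the repressor Nr1d2 from 179.7, 110.2 and 172 to 23.3, 15.7 and 9.59 CPM (adjusted p = 0.000192 and 0.00112). Both limbs of the loop were lower, since Clock and Arntl fell (log2 fold changes -2.09 and -2.40) along with Per2 and Cry2 (-4.07 and -2.89). The call of Clock was lost without 2d-U 2 or 2d-U 3 (adjusted p up to 0.072) and Per2 without 2d-U 1 (adjusted p up to 0.0546). The hours of sampling are not given in the sources used here.

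Imprinted genes that restrain or promote growth gave 12 lower of 19 and none higher, beside 33.3% and 10.6% of all genes. Their median log2 fold change was -3.27, and -3.04 with F 1 as the only fresh library. Meg3, a maternally expressed long noncoding RNA, was at 86.5, 49.1 and 46.3 CPM in F and near 0 in 2d-U at 0.0945, 0.392 and 0.443 CPM, 198-fold lower (log2 fold change -7.63, SE 0.61, adjusted p = 8.8e-06), and its neighbour Rian fell with it (log2 fold change -5.49, adjusted p = 0.0151). Peg3 went from 159, 67.0 and 93.4 to 25.7, 25.0 and 16.9 CPM (adjusted p = 0.0175, but 0.061 without 2d-U 3) and Grb10 did not pass. Of 18 p53 targets 5 were higher and 6 lower, beside 10.6% and 33.3% of all genes. All 18 averaged 5 CPM or more, a level at which 21.7% of genes were higher and 24.3% lower. Trp53 itself rose from 74.2, 67.4 and 117 to 300.1, 249.7 and 260.4 CPM and its target Bax by a log2 fold change of 2.70, while Gadd45a, also a stress gene, fell from 548, 82.5 and 104 to 13.9, 8.74 and 14.2 CPM (adjusted p = 0.0104, 0.00571 and 0.00236). These counts depended on the libraries used: 2 to 3 higher without any one library, 3 lower without 2d-U 1 or 2d-U 2, and 2 and 4 against F 1 alone.

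**Figure D5:**
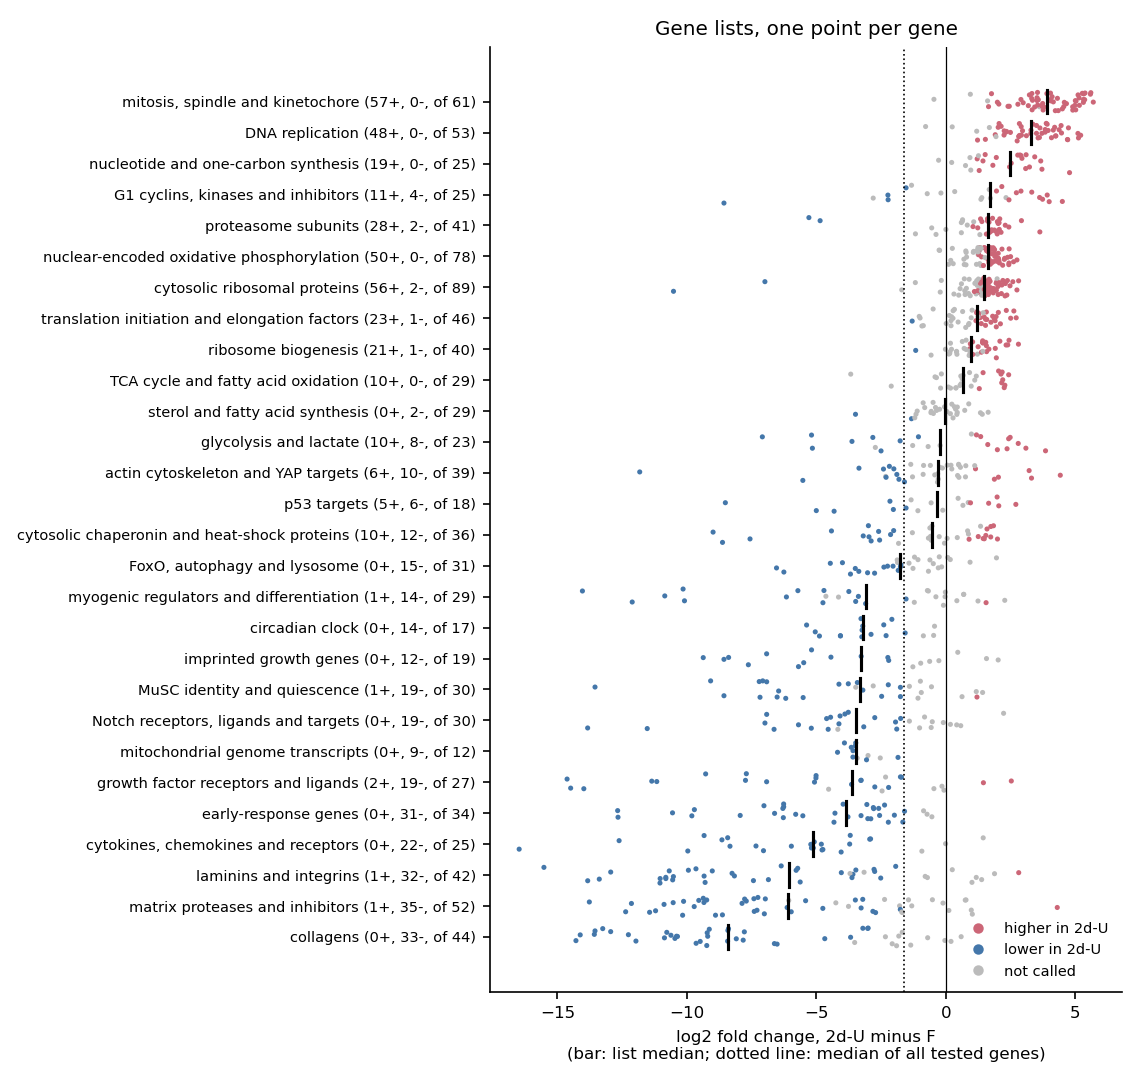
Log2 fold change (2d-U minus F) of each tested member of 28 gene lists, ordered by the list median (black bar), with the numbers higher (+) and lower (-) in 2d-U beside each name. Cell division lists lie at the top, at medians up to 3.90, and matrix lists at the bottom, at a median of -8.41 for collagens; the dotted line is the median of all tested genes, -1.63.

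The 12 largest rises among genes of at least 20 CPM in the higher group were mostly mitotic. They were Wincr1, Tmem171, Cdk1, Pbk, Plk1, Aurka, Pimreg, Ska1, Ptgr1, Sgo1, Kif22 and Cdc20. Wincr1, a long noncoding RNA, had 0, 0.161 and 0.304 CPM in F and 32.8, 40.4 and 36.3 CPM in 2d-U (adjusted p = 8.32e-05), and the membrane protein gene Tmem171 0.624, 0.45 and 0.531 and 39.8, 38.4 and 40.8 CPM (adjusted p = 0.00417, and 0.117 against F 1 alone). Ptgr1, a reductase of lipid aldehydes and prostaglandins, went from 9.74, 19.6 and 7.21 to 569, 509 and 438 CPM, 41.5-fold higher (adjusted p = 5.06e-05). The other 9 act in spindle, kinetochore, cohesion or mitotic signaling.

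The 12 largest falls all had no read in any 2d-U library, so each fold is a limit against 3 reads per library. They were Fmod, Iigp1, Sparcl1, Cilp, Ngp, Prelp, Chad, Cd74, Lyz2, Lum, Gbp2 and Neu2. Fmod, Cilp, Prelp, Chad and Lum encode matrix proteins of tendon, cartilage and fibrous tissue. Fmod read 337, 4147 and 4042 CPM in F, at least 35420.3-fold lower after culture, with F 1 far below F 4 and F 5. Ngp, Lyz2 and Cd74 belong to neutrophils, myeloid cells and antigen-presenting cells. The fibroadipogenic and immune markers fell in the same libraries, and their part in these falls was not tested. Lyz2 read 835, 380.5 and 290.3 CPM and Cd74 1049, 528 and 319.7 CPM, both highest in F 1. Iigp1 and Gbp2 are interferon-induced GTPases, at 745, 1428 and 936 CPM and 503, 414 and 406 CPM. The cytosolic sialidase Neu2, a gene of skeletal muscle, read 906, 130.2 and 189.9 CPM and was at least 5093-fold lower (adjusted p = 2.42e-05). The smallest level such limits rest on, 3 reads, corresponds to 0.0567, 0.118 and 0.0665 CPM in 2d-U 1, 2 and 3.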

How the data were processed

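RNA was prepared from ZsGreen+ MuSCs, converted to cDNA with the SMART-seq v4 kit and sequenced single-end. The authors aligned the reads to mm10 with the nf-core RNA-seq pipeline 1.4.2 and deposited counts per gene, made without strand by featureCounts 1.6.4 on GENCODE annotation. The merged table matched the single-library files at all 55335 genes, and 0 columns belonged to no sample of the series. Here genes were filtered with edgeR's filterByExpr, which left 22635, and a quasi-likelihood model of all 12 libraries in 4 groups was fitted after TMM scaling (edgeR 4.0.16, limma 3.58.1, R 4.3.3), so that the spread was estimated from all groups. The contrast was 2d-U minus F, two-sided, with Benjamini-Hochberg adjustment over all tested genes and calls at an adjusted p under 0.05. An exact test of 3 against 3 libraries cannot go below p = 0.1, so none was used for single genes.

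A library of 20329459 to 45003574 reads puts 3 reads, taken as the limit of detection, at 0.0567 to 0.125 CPM. Limits of this kind cover counting error only. Members and gene lists were chosen with earlier results of these data known. Named were all members of the identity and myogenic lists, of each other list all members where at most 12 were tested and otherwise the 3 with the smallest p and the 3 most abundant, and the 12 largest rises and falls without overlap at 20 CPM or more in the higher group. Genes completing a family (such as the MCM helicase, D and E cyclins, AP-1, chaperonin, Notch receptors and immunoproteasome) and some further list members were added after their values were seen. Alternatives were DESeq2 1.42.0, no TMM, scaling without mitochondrial genes, other filters, both groups alone, subtraction of reads expected from 1549 autosomal genes of silent families, each library left out, F 4 and F 5 left out together, and stricter thresholds. The scripts were tested on simulated data. Exon overlap was computed with GenomicRanges 1.54.1. Counting without strand cannot separate overlapping or antisense genes, and near-identical copies (ribosomal protein genes, Hspa1a and Hspa1b, mitochondrial genes) are uncertain. The RefSeq promoter windows are on GRCm38.p6, the assembly behind mm10. Some list members are not reported here by name.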

Additional observations from a re-analysis of the deposited data

How the results depend on the processing

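No paired analysis was possible because F and 2d-U share only replicate number 1. The 2395 higher and 7527 lower genes became 1276 to 2426 and 3584 to 14107 with one library left out, 613 and 2362 with F 4 and F 5 both left out, and 1105 and 2544 at an adjusted p under 0.01. Testing against a fold change of 2 left 1339 higher genes, a mean of at least 5 CPM left 3031 lower genes of the smaller set tested, and subtracting the density of silent families left 4942 lower. Other alternatives stayed within 1.5 times of both counts, among them DESeq2 with 2494 higher and 7899 lower. In the set of at least 5 CPM the median log2 fold change of 0.09 became -0.10 with DESeq2 and 0.21 without TMM. With F 1 as the only fresh library the log2 fold changes of Myog (0.76), Actc1 (1.55), Acta1 (1.99), Tnnc1 (1.71), Tnni1 (0.84), Tnnt3 (0.93), Mylpf (0.74) and Ttn (1.70) turned positive without passing the test, and Id2, not called, ran from -0.46 to 1.42 with one library left out and passed at 1.42 without F 1. These are genes in which F 4 and F 5, or F 1 alone, held the highest levels. Actc1 had 0 reads in F 1 and 1, 0 and 0 reads in 2d-U, so its 1.55 rests on 1 read. Of 333 genes named by the rule or added, 309 kept direction and side of the threshold with DESeq2, 320 without TMM, 322 with subtraction, 295 to 320 with one library left out and 236 with F 1 as the only fresh library, where 75 lost their call in the same direction. The reason for each change was not tested. Below 5 CPM 4557 of 4907 lower genes had at most 3 reads in every 2d-U library, so their fold changes are limits.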
